A study of Rattus norvegicus with 16 samples.

Results

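Chromosome ends were described here as the windows of 1 kb (1000 bp) that lie within the first 3 Mb or the last 3 Mb of the sequence covered on each of the 20 rat autosomes. A window was kept if it held at least 3 CpG cytosines that were read at least 10 times in each of 10 libraries, and the limits of a chromosome were the smallest and the largest position listed in any of these libraries. This gave 3603 end windows with 21357 CpG cytosines, 1474 of them at the first and 2129 at the last ends, among 86065 autosomal windows (4.19%). The 82462 other autosomal windows served for comparison. The tissue was the amygdala of female Long-Evans rats, and the assay was reduced representation bisulfite sequencing, in which a restriction digest selects CpG-rich fragments and bisulfite marks the cytosines that are not methylated. The 3 groups were offspring of dams on control diet taken at postnatal day 7 (P7, 4 libraries), P7 offspring of dams fed a high-fat diet from 4 weeks before pregnancy through gestation and lactation (4 libraries), and offspring of control dams at postnatal day 90 (P90, 2 libraries). The offspring ate no high-fat diet, and P90 animals were on control diet after weaning. The other 6 libraries of the series, all from P90, were processed under other names and were not analysed here, so diet was compared at P7 only. The labels do not say whether the libraries of a group came from separate litters, and p-values therefore measure the spread between these libraries.

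The ends of mammalian chromosomes carry telomere repeats, and the stretches next to them tend to be rich in GC and CpG, in genes and in copies of segments shared between chromosomes. Many rat autosomes have their centromere close to one end of the chromosome, so the first and the last end of an assembled sequence need not be alike. DNA methylation at CpG is written and kept by DNA methyltransferases, and in mammals most CpGs outside CpG-rich promoters are methylated. The files give positions only, and which genes lie in these windows was not analysed here.

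Each of the 10 libraries listed 1796735 to 2188584 CpG cytosines with 22087054 to 63677193 reads. In end windows the median of the reads per window was 108 to 300 between libraries, against 104 to 290 in the other windows, so both kinds of window were read to a like depth. Methylation of a window was its methylated reads over all its reads, and differences are given in percentage points. In these 10 files no site was listed without a methylated read, so windows near 0% are thinned out at the ends and elsewhere, and levels under 20% are upper estimates.

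Methylation was lower at the last ends and higher at the first ends than in the rest of the chromosomes, in every library. The last ends averaged 73.1% ± 1.17 (SD, n = 10 libraries) and the first ends 77.8% ± 0.834, against 76.2% ± 0.964 in the other windows. At the last ends, the control P7 libraries held 74.0%, 71.9%, 72.7% and 73.2%, the high-fat P7 libraries 73.7%, 73.2%, 70.7% and 72.6%, and the control P90 libraries 74.4% and 74.5%. At the first ends the same libraries held 78.7%, 76.9%, 77.4% and 78.0%, then 78.7%, 78.0%, 76.2% and 77.4%, then 78.5% and 78.4%. The libraries differed in overall level, but each kept the order of the zones. The last ends lay 3.12 points below the other windows of the same library (-3.12 ± 0.301, SD, n = 10, lower in 10 of 10 libraries) and the first ends 1.62 points above (1.62 ± 0.186, higher in 10 of 10). The last minus the first ends gave -4.73 ± 0.439 points (two-sided exact sign-flip permutation over 10 libraries, p = 0.00195, the smallest this test can give). This test covers the spread between libraries and not that between regions of the genome. The size of these gaps depended on the regions taken. With ends of 1 Mb the last ends were closer to the rest (-0.582 ± 0.391 points, lower in 9 of 10 libraries, exact sign-flip p = 0.00391) and the first ends 0.792 points above. As a mean of the 20 chromosomes' own differences the values were -1.49 points for the last and 2.74 for the first ends.

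**Figure D1:**
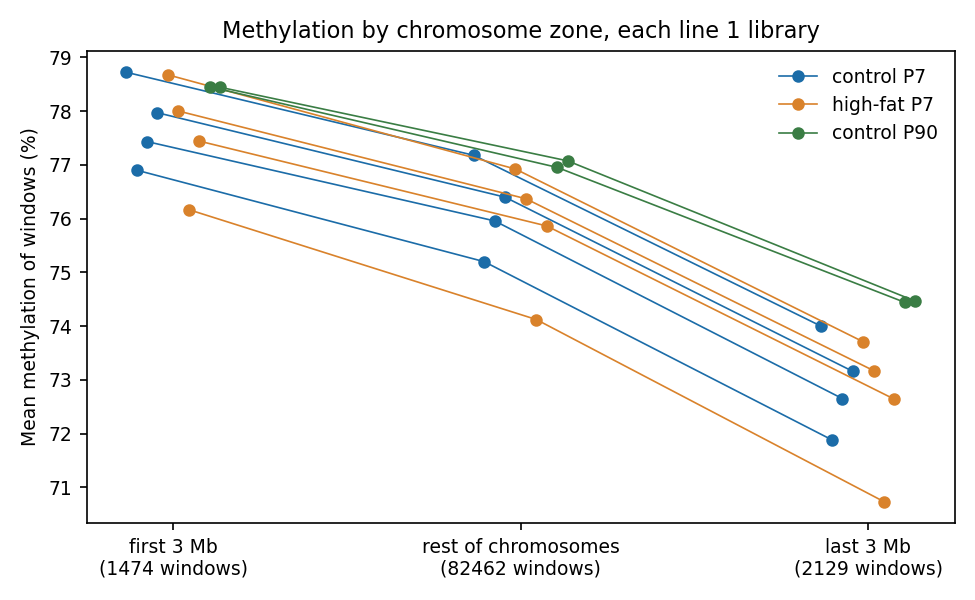
Mean methylation of windows in percent (vertical axis) in the first 3 Mb, the rest and the last 3 Mb of the autosomes, with each line and its points for 1 library, coloured by group. Every line falls from left to right, and the first ends of a library average 3.98 to 5.43 points more than its last ends.

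Both ends combined lay 1.18 points below the other windows (-1.18 ± 0.146, n = 10, lower in 10 of 10 libraries; exact sign-flip p = 0.00195). That value joined opposite signs at the first and the last ends, and with ends of 1 Mb in place of 3 Mb it was 0.105 points (exact p = 0.271). It was -0.750 without the ends of chromosome 12 and -0.340 as a mean of the 20 chromosomes' own differences. The median over windows differed by only -0.0197 points between both ends together and the rest (exact p = 0.746). Weighting the other windows to the numbers of CpG sites per window found at the ends left the values at -3.07 ± 0.297 points for the last and 1.88 ± 0.201 for the first ends.

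The distribution of levels showed where the last ends differed. Of the windows at the last ends, 14.2% had a mean methylation under 40%, against 11.1% at the first ends and 10.7% in the rest of the chromosomes. Windows at 80% or more made up 56.9% of the last ends, 66.8% of the first ends and 61.9% of the rest. The last ends thus held more windows of low and middle level and fewer highly methylated ones, and the first ends held more of the highly methylated ones.

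The density of CpG cytosines that were listed, counted without a minimum of reads, also differed between the ends. The last ends held 719 to 859 listed sites per Mb and the first ends 534 to 645, against 663 to 811 in the rest. As log2 ratios to the rest of the same library these were 0.09 ± 0.0186 (higher in 10 of 10 libraries) and -0.34 ± 0.0231 (lower in 10 of 10), each with an exact sign-flip p of 0.00195. All libraries share the genome and the digest, so like ratios are built in, and this p does not cover the spread between regions. The higher density of the last ends did not hold in their outermost part. With ends of 1 Mb the last ends held 425 to 520 sites per Mb, a log2 ratio of -0.68 ± 0.0427 (lower in 10 of 10 libraries), and with ends of 5 Mb the ratio was 0.45. Both ends together gave -0.11, -0.67 with ends of 1 Mb and 0.16 with ends of 5 Mb. Windows that passed were alike in size, with a mean of 5.77 CpG sites at the last ends, 6.15 at the first ends and 5.63 elsewhere.

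Single chromosome ends varied far more than these averages. Against the rest of its own chromosome, 14 of the 20 last ends lay below, 13 of them in all 10 libraries, and 13 of the 20 first ends lay above, all 13 in all 10 libraries. On 14 of the 20 chromosomes the last end was below the first end. The difference to the own chromosome ran from -9.94 to 13.4 points at the last ends and from -8.91 to 16.4 points at the first ends. Ends also differed in how many windows they held, from 9 to 175 at the first and from 16 to 331 at the last, and the 5 ends with the most windows held 35.1% of all end windows.

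The lowest of the 37 ends with at least 20 windows was the last end of chromosome 1 (chr1:279756278-282756278, Rnor_6.0, 100 windows). Methylation there averaged 65.6%, with 62.4% to 68.3% between the 10 libraries, 9.94 points under the rest of chromosome 1, and 22% of its windows lay under 40%. The first end of chromosome 16 (chr16:5108-3005108, 117 windows) averaged 68.3% and the last end of chromosome 12 (chr12:49710985-52710985, 283 windows) 68.8%. The lowest ends therefore included 1 first end, and the order of the averages did not hold on every chromosome.

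The 3 most methylated of these 37 ends were all first ends. Among the 3 ends with fewer windows, the first end of chromosome 13 (9 windows) averaged 90.5% and the last end of chromosome 18 (16 windows) 89.5%. On chromosome 8 (chr8:16044-3016044, 38 windows) the mean was 92.5%, with 91.6% to 93.5% between libraries, 16.4 points above the rest of the chromosome, and 0 of its windows lay under 40%. The first ends of chromosome 14 (chr14:8680-3008680, 60 windows) and chromosome 19 (chr19:5275-3005275, 33 windows) averaged 83.8% and 83.7%. On chromosome 8 the last end averaged 74.3%, so its opposite ends differed by more than the libraries did.

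For scale, the rest of the chromosomes was cut into blocks of 3 Mb, of which 751 held at least 20 windows. Their mean methylation had a median of 77.4%, and 90% of them lay between 69.9% and 86.4%. Of the 37 ends, 4 lay below and 1 lay above that range. Of the 18 last ends with at least 20 windows 15 lay below the median of the blocks, and of the 19 first ends 9 did. The chromosome ends thus lay mostly within the range that 3 Mb of a rat autosome can show.

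**Figure D2:**
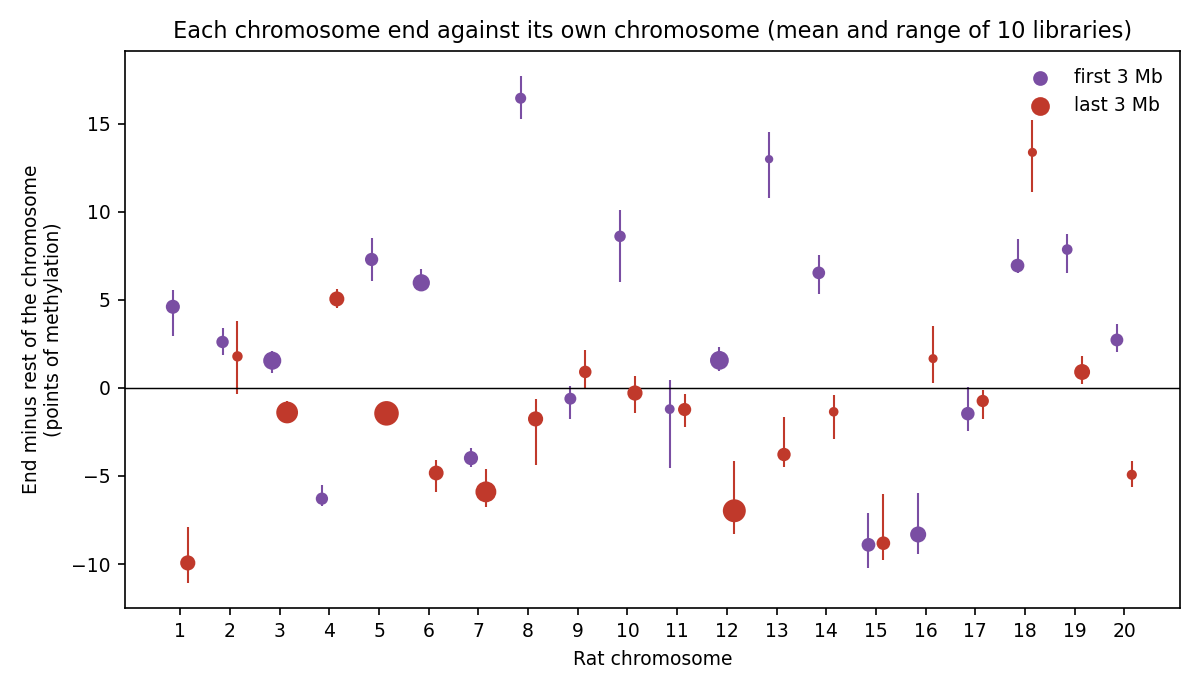
Methylation of each chromosome end minus the rest of the same chromosome, in percentage points (vertical axis), by chromosome (horizontal axis). Points are the mean of 10 libraries, lines run from the lowest to the highest library, and the area of a point grows with its number of windows. The first end of chromosome 8 stands at 16.4 points and the last end of chromosome 1 at -9.94.

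Along the last ends, pooled over chromosomes, the mean was lowest from 1 to 2 Mb and not at the very end. From 0 to 1 Mb of the last position the mean was 75.6% (349 windows), from 1 to 2 Mb it was 70.5% (651 windows) and from 2 to 3 Mb 73.8% (1129 windows). Without chromosome 12 the step from 1 to 2 Mb had a mean of 72.1% (531 windows). Just outside the limit, from 3 to 4 Mb on all chromosomes, the mean was 74.8% (1149 windows). In the outermost Mb the 10 libraries held 74.0% to 76.7%, and in the next they held 67.8% to 72.9%, so these ranges did not overlap. They cover the spread between libraries and not that between chromosomes. On some chromosomes, such as 5 and 12, the outermost Mb had a higher mean than the next. On others, such as 7 and 11, it had a lower mean. At the first ends the means were 76.9%, 78.4% and 77.9% over the same steps and 77.4% from 3 to 4 Mb, and the ranges of the libraries overlapped. The outermost Mb there averaged 77.0% in control P7, against 78.4% in the next, and 76.4% against 78.1% in high-fat P7. The 2 control P90 libraries held 78.1% and 77.7% in the outermost Mb, against 78.7% and 79.0% in the next.

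**Figure D3:**
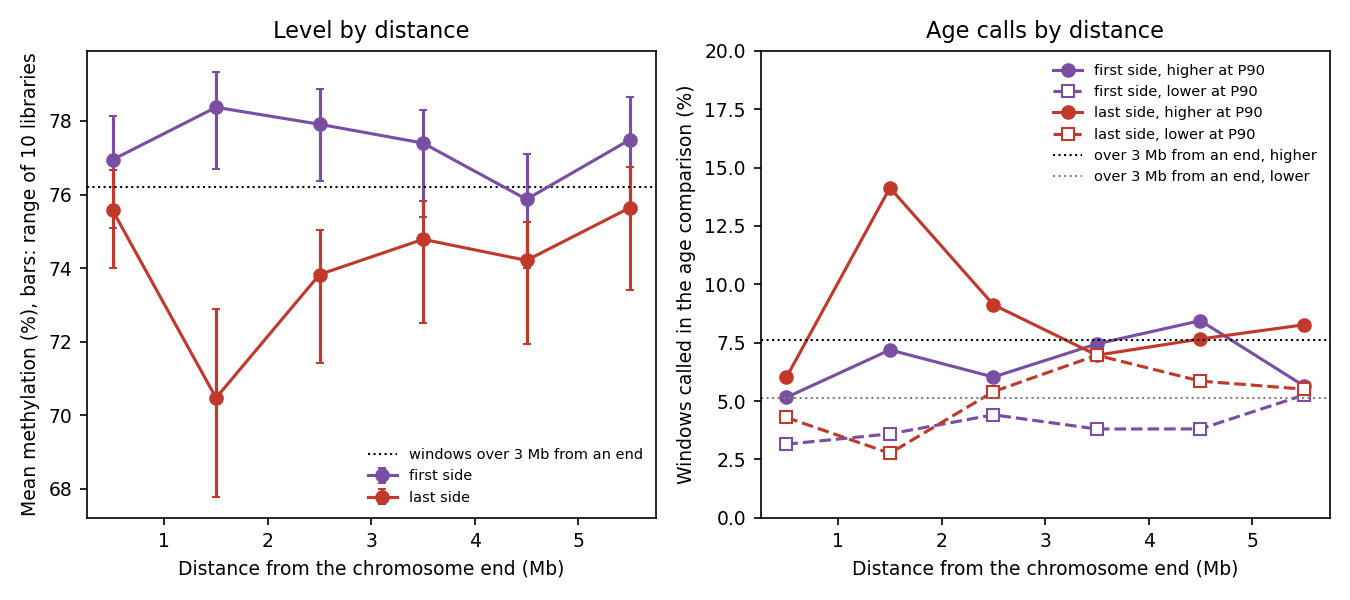
Left, mean methylation of windows in percent by distance from the chromosome end in Mb, with bars from the lowest to the highest of 10 libraries. Right, percent of windows called higher or lower at P90 than at P7 by the same distance; dotted lines give the windows over 3 Mb from an end. The last side dips to 70.5% between 1 and 2 Mb, where 14.1% of windows were called higher.

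The change from P7 to P90 was followed in offspring of control dams, 4 libraries against 2. Of the end windows, 307 (8.52%) were called higher and 151 (4.19%) lower at P90 (logistic model with dispersion moderated by limma, adjusted p under 0.05 over all windows). Over all 87580 windows tested, 7.57% were called higher and 5.02% lower, so the ends as a whole lay near the background. End windows called higher had a median level of 35.4% in P7 libraries and 55.0% in P90 libraries. For those called lower the medians were 83.5% and 69.4%. At the last ends 216 of 2129 windows (10.1%) were called higher and 94 (4.42%) lower, and at the first ends 91 of 1474 (6.17%) and 57 (3.87%). In the rest of the chromosomes the shares were 7.61% and 5.14%. The counts at the ends fell to 179 higher and 86 lower without control P90 replicate 1, and to 169 and 89 without control P90 replicate 2.

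Whether the change with age differed between ends and rest was tested on 1 value per library, its end mean minus its mean elsewhere. At the last ends this value was -3.18 to -3.31 points in the 4 control P7 libraries and -2.51 and -2.61 in the 2 control P90 libraries, and the groups did not overlap. The gap to the rest of the chromosomes was thus 0.699 points smaller at P90 (two-sided exact permutation p = 0.0667, the smallest that 4 against 2 libraries allow, so 0.05 could not be reached). It was 0.381 points without the ends of chromosome 12 and 0.188 with ends of 5 Mb, and with ends of 1 Mb it turned to -0.714 (exact permutation p = 0.0667 each). At the first ends the values were 1.48 to 1.70 points at P7 and 1.37 and 1.50 at P90, which overlapped (difference -0.139, exact permutation p = 0.267). Both ends together gave a difference of 0.356 points (exact permutation p = 0.0667), which turned to -0.287 with ends of 1 Mb. The mean of the last ends itself was 72.9% ± 0.886 in the 4 P7 libraries and 74.5% ± 0.0161 in the 2 P90 libraries (SD; exact permutation p = 0.133), and that of the first ends 77.8% ± 0.778 and 78.4% ± 0.00566 (exact permutation p = 0.333).

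The share of windows that changed depended on their level, at the ends as elsewhere. Levels were taken from the 4 high-fat P7 libraries, which the age comparison does not use. At the last ends 48.2% of 112 windows under 20% were called higher, 35.9% of 206 windows at 20 to 40%, 21.3% of 225 at 40 to 60%, 7.25% at 60 to 80% and 1% at 80 to 100%. At the first ends these shares were 34.9%, 21.6%, 19.0%, 7.80% and 0.911%, and in the rest of the chromosomes 37.2%, 30.4%, 18.2%, 7.37% and 1.47%. Windows under 60% therefore made most of the calls that were higher in each zone, and the last ends held a larger share of such windows. With the other windows weighted to the levels of the last ends, 9.05% of them were called higher, against 10.1% of the last ends, and 5.13% lower against 4.42%. For the first ends the weighted share was 7.11% higher against 6.17%. The difference of 0.699 points at the last ends became 0.367 with this weighting (exact permutation p = 0.0667).

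**Figure D4:**
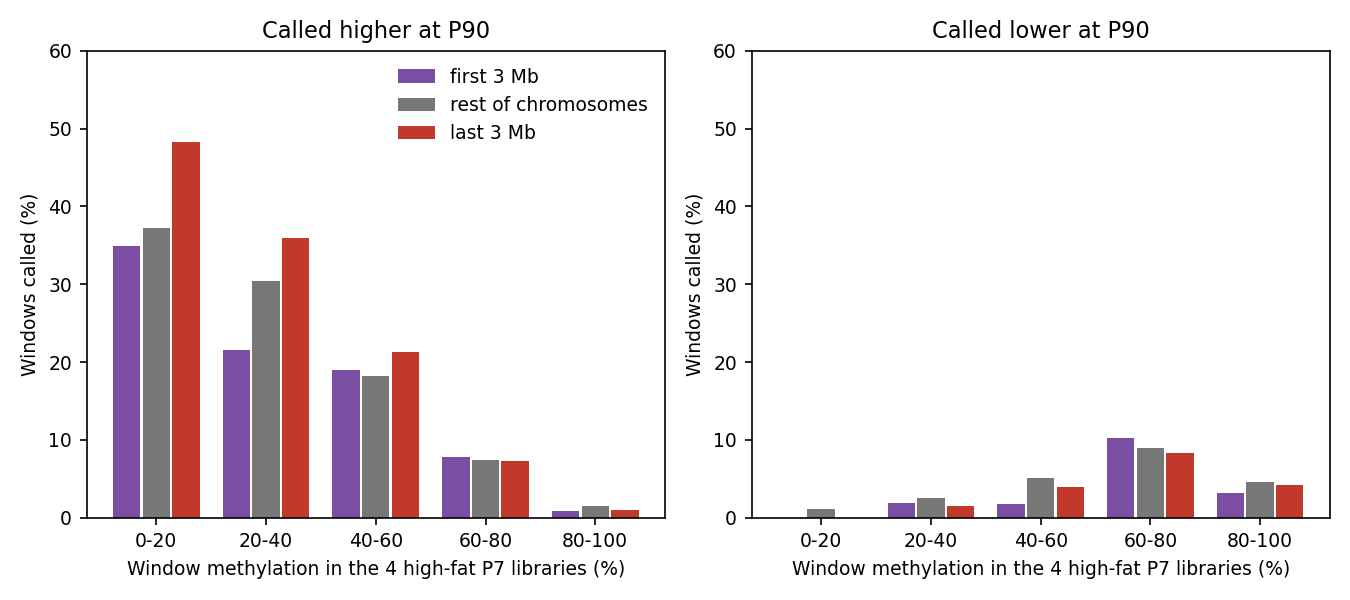
Percent of windows called higher (left) and lower (right) at P90 than at P7 in control offspring, by their methylation in the 4 high-fat P7 libraries in percent. Bars are the first ends, the rest of the chromosomes and the last ends. In the lowest class the bars reach 34.9%, 37.2% and 48.2% for windows called higher.

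Windows called higher were most frequent between 1 and 2 Mb from the last position, where 92 of 651 (14.1%) were called higher and 18 (2.76%) lower. This step also had the lowest mean level (70.5%), and its share was not weighted to level. Among the single blocks of 3 Mb in the rest of the chromosomes, the 95th percentile of the share called higher was 14.3%. In the outermost Mb 21 of 349 (6.02%) were called higher and 15 lower, and from 2 to 3 Mb 103 of 1129 (9.12%) and 61. Chromosome 12 held the largest part of the calls between 1 and 2 Mb, a stretch singled out after its values were seen (chr12:50710986-51710985). There 33 of 120 windows (27.5%) were called higher and 0 lower, and 80.8% of the windows had a higher mean at P90. Its mean was 63.9%, 61.0%, 61.6% and 63.1% in the control P7 libraries, 63.2%, 62.8%, 59.0% and 62.7% in the high-fat P7 libraries, and 68.0% and 69.1% in the control P90 libraries. Both P90 libraries lay above all 8 P7 libraries. Windows of the same levels in the rest of the chromosomes were called higher in 13.7% of cases. In the neighbouring outermost Mb of chromosome 12, 4 of 56 windows were called higher and 3 lower. Without chromosome 12, 59 of 531 windows (11.1%) between 1 and 2 Mb of the last ends were called higher and 18 lower.

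The ends of other chromosomes did not all move the same way. More windows were called higher than lower at 13 of the 20 last ends and 12 of the 20 first ends, and fewer at 5 and 6. On chromosome 5, the stretch from 1 to 2 Mb of the last end (chr5:171705178-172705177) had 20 of 142 windows higher (14.1%) and 4 lower (2.82%), against 10.2% and 5.62% among windows of the same levels in the rest of the chromosomes. On chromosome 7 the same step (chr7:143729004-144729003) had 5 of 57 windows higher (8.77%), against 12.3% among windows of the same levels. The stretches of chromosomes 5 and 7 were picked after their values were seen. On chromosome 3 the same step, not weighted to level, had 6 of 85 windows higher and 6 lower. The last end of chromosome 8, also picked after its values were seen, had the opposite balance, with 2 of 100 windows higher and 14 lower. In its part from 2 to 3 Mb (chr8:130277663-131277662) 10 of 60 windows were lower (16.7%) and 0 higher, against 6.11% lower and 7.18% higher among windows of the same levels in the rest of the chromosomes. The mean of that part was 75.5% ± 1.08 (SD, n = 4) in control P7, 75.3% ± 1.58 in high-fat P7, and 73.3% and 72.6% in the control P90 libraries.

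Calls in neighbouring windows rarely differed in direction, at the ends and elsewhere. Of 501 pairs of adjacent end windows 34 were both called, and all 34 had the same direction, 30 of them higher and 4 lower. In the rest of the chromosomes 449 of 10631 pairs were both called, and 408 of these had the same direction. The runs of 3 adjacent end windows were 4 in number. Runs in the rest of the chromosomes are not given here, so this count cannot be set against a background. On chromosome 15 (chr15:2370001-2373000, first end, 24 sites) the mean was 20.7% ± 3.44 (SD, n = 4) in control P7, 19.7% ± 1.12 in high-fat P7, and 43.5% and 38.0% in control P90. On chromosome 6 (chr6:145008001-145011000, last end) it went from 11.7% ± 1.49 to 22.2% and 19.6%. On chromosome 7 (chr7:142734001-142737000, last end) it went from 48.7% ± 2.60 to 64.4% and 66.0%. The run that was lower lay on chromosome 8 (chr8:130402001-130405000, last end) and went from 75.2% ± 3.85 to 60.8% and 51.4%.

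The end window with the smallest p among those higher lay 2018 kb from the last position of chromosome 7 (chr7:143710001-143711000, 22 CpG cytosines within 338 bp, 907 to 1734 reads per library). Its control P7 libraries held 26.0%, 28.0%, 26.0% and 29.2%, its high-fat P7 libraries 27.7%, 34.9%, 20.6% and 29.1%, and its control P90 libraries 64.5% and 60.3% (difference 35.1 points, adjusted p = 5.68e-10, logistic model moderated by limma). All 22 cytosines were higher at P90, by 8.46 to 50.3 points, so the change covered the part of the window that was read. The high-fat P7 libraries, which had no part in the test, lay with the control P7 libraries.

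A window near the end of chromosome 5 (chr5:171764001-171765000, 16 sites) held 52.8%, 53.5%, 49.7% and 47.6% in control P7, 41.9% to 52.8% in high-fat P7, and 78.8% and 73.9% in control P90 (adjusted p = 2.46e-07). All 16 of its sites were higher at P90. On chromosome 19 (chr19:60210001-60211000, 3 sites, 49 to 137 reads) the values were 21.6%, 25.5%, 31.4% and 14.3%, then 18.8% to 32.8%, then 72.7% and 71.0% (adjusted p = 2.74e-07). This was the largest change among the 10 windows named for age that were higher or lower, apart from the chromosome 14 window below, and it rests on 3 sites. At the first end of chromosome 6 (chr6:943001-944000, 9 sites) they were 46.0%, 51.4%, 55.3% and 49.8%, then 46.6% to 52.4%, then 81.9% and 78.3% (adjusted p = 3.83e-07).

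A window of low level lay in the stretch of chromosome 12 described above (chr12:51248001-51249000, 10 sites over 925 bp). It held 8.47%, 10.5%, 7.79% and 9.64% in control P7, 7.86% to 13.2% in high-fat P7, and 28.9% and 25.8% in control P90 (adjusted p = 5.26e-07). Of its 10 sites 9 were higher, by up to 31.7 points. The window before it, with 17 sites, was called as well, at 20.8% in control P7 and 34.1% in control P90 (adjusted p = 0.00224), and the one after it, with 3 sites, was not (difference 10.2 points, adjusted p = 0.115).

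Among windows that were lower, the smallest p belonged to a window 952 kb from the last position of chromosome 14 (chr14:114540001-114541000, 5 sites, 74 to 329 reads). It held 87.9%, 78.4%, 84.3% and 76.1% in control P7, 77.2% to 86.6% in high-fat P7, and 34.1% and 30.7% in control P90 (difference -49.3 points, adjusted p = 2.07e-09). Each of the 5 sites was lower, with differences of -52.1 to -45.9 points, so the sites of this window moved almost alike. On chromosome 3 (chr3:175550001-175551000, 9 sites) the control P7 libraries held 87.7%, 83.1%, 79.0% and 78.9%, the high-fat P7 libraries 84.5% to 89.6% and the control P90 libraries 48.8% and 44.2% (adjusted p = 4.10e-08).

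The other 3 windows that were lower lay at first ends. On chromosome 10 (chr10:1251001-1252000, 4 sites) the values were 75.0% to 85.7% in control P7, 73.3% to 92.9% in high-fat P7 and 43.3% and 41.2% in control P90 (adjusted p = 1.85e-07). On chromosome 12 (chr12:2157001-2158000, 10 sites) they were 74.4% to 79.3%, then 75.8% to 81.5%, then 54.2% and 52.8% (adjusted p = 3.26e-06). On chromosome 3 (chr3:2795001-2796000, 4 sites) they were 89.8% to 96.0%, then 88.0% to 93.6%, then 69.6% and 74.6% (adjusted p = 6.04e-06). In each of these 10 windows both control P90 libraries lay outside the range of the 8 P7 libraries of either diet. The windows were picked for the difference between the control groups, and only the 4 high-fat P7 libraries had no part in that. Limma on log ratios gave larger adjusted p-values for these 10 windows, from 0.00394 to 0.00929.

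**Figure D5:**
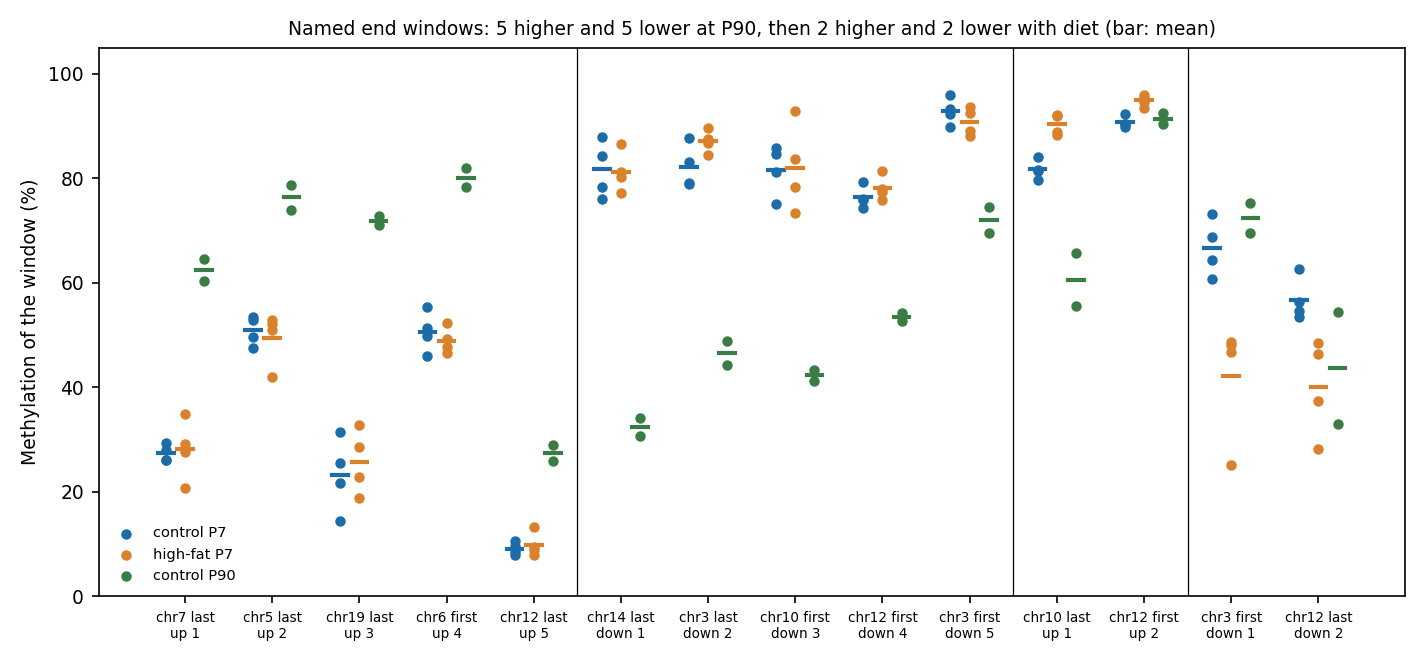
Methylation of the named end windows in percent (vertical axis). Each point is 1 library and each short bar the mean of its group. From left to right are the 5 windows higher at P90, the 5 lower at P90, and the 2 higher and 2 lower with high-fat diet at P7, none of which passed for diet. In the first 10 windows the high-fat P7 points lie with the control P7 points and apart from the control P90 points.

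Maternal diet was compared among the P7 libraries, 4 against 4. No end window was called, 0 higher and 0 lower of 3603, by the logistic model moderated by limma, and limma on log ratios also called 0. Fisher's exact test on pooled counts, which ignores the spread between libraries, called 39 higher and 62 lower. Its share over all windows is not given here, so these counts cannot be set against the rest. By the logistic model 0.00228% of all 87580 windows were called higher and 0.00343% lower, so few of its calls could fall on the ends. An unadjusted p under 0.05 was found in 165 end windows (4.58%), against 4.61% of the other windows. The mean over end windows was 74.9% ± 0.841 (SD, n = 4) in control libraries, against 74.6% ± 1.20 (SD, n = 4) with high-fat diet (exact permutation, two-sided, p = 0.714). The value of the ends minus the rest was -1.21 ± 0.0416 points in high-fat and -1.28 ± 0.0454 in control libraries, a difference of 0.0758 points whose ranges overlapped (exact permutation p = 0.0571). Without single libraries it was 0.0536 to 0.093 (exact permutation p = 0.0286 to 0.114). The smallest p came without high-fat P7 replicate 4 and is the least that 3 against 4 libraries allow. The difference turned to -0.148 with ends of 1 Mb and to -0.0407 with ends of 5 Mb. At the last ends the difference was 0.00452 points (exact permutation p = 0.914) and at the first ends 0.179 (exact permutation p = 0.143).

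The 2 end windows with the smallest p in each direction did not pass, and their values are given as a description. Near the start of chromosome 3 (chr3:160001-161000, 11 sites, 284 to 849 reads), control P7 libraries held 60.7%, 64.4%, 73.1% and 68.8%, high-fat P7 libraries 48.1%, 48.6%, 25.0% and 46.6%, and control P90 libraries 75.3% and 69.5%. The difference by diet was -24.7 points, all 11 sites lay lower in high-fat offspring, and the groups did not overlap, but the libraries spread widely and the adjusted p was 0.670. Without high-fat P7 replicate 3, the lowest library, the difference was -19.0 points with an adjusted p of 0.0367. In the other 7 runs that left out 1 library it did not pass. On all libraries, limma on log ratios gave an adjusted p of 0.9996. Fisher's exact test on pooled counts, which ignores the spread between libraries, gave an adjusted p of 5.86e-55. The window after it, with 3 sites, held 43.9% in control P7 and 28.8% in high-fat P7. At the last end of chromosome 12 (chr12:52188001-52189000, 4 sites) the values were 53.5% to 62.7% in control P7 and 28.1% to 48.5% in high-fat P7 (adjusted p = 0.767).

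In the other direction, a window near the end of chromosome 10 (chr10:110002001-110003000, 7 sites) held 84.2%, 79.7%, 81.3% and 81.6% in control P7, 88.9%, 92.2%, 92.0% and 88.2% in high-fat P7, and 65.7% and 55.5% in control P90 (diet difference 8.62 points, adjusted p = 0.767). A window 31.2 kb from the first position of chromosome 12 (chr12:32001-33000, 3 sites) held 89.8% to 92.4% in control P7 and 93.5% to 96.0% in high-fat P7 (adjusted p = 0.975). In each of these 4 windows the P7 libraries of the 2 diets did not overlap. The windows were picked for their small p between these same libraries, so this separation goes with the choice. The share of all windows without overlap is not given here.

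Libraries of 1 group spread at the ends about as they did elsewhere. The median over windows of the SD between the 4 control P7 libraries was 2.89 points at the ends, with 3.00 at the last and 2.63 at the first ends, against 3.01 in the rest. Between the 4 high-fat P7 libraries it was 2.91 at the ends and 2.99 in the rest. In windows at 80 to 100% in the P90 libraries the control value was 2.36 at the ends and 2.41 in the rest, and at 40 to 60% it was 4.82 and 4.98.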

How the data were processed

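The authors deposited, for each library, methylated and unmethylated read counts per CpG cytosine and strand, without normalization, in files with no header. Per the submitters' processing notes the genome build is Rnor_6.0. File names mention trimming and Bismark with Bowtie 2, with versions and filters not given in the sources used here. No site was listed with fewer than 1 methylated read.

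Reads of sites with at least 10 reads in all 10 libraries were summed in windows of 1 kb with at least 3 sites. A logistic model per window, over all 87580 windows of all chromosomes, was tested by a two-sided F test on the deviance, with Pearson dispersion moderated by limma 3.58.1 (trend, robust) and never below 1, and adjusted by Benjamini-Hochberg at 0.05. In simulated counts without a change, p-values under 0.05 were slightly more frequent than nominal. Zones were compared over libraries by exact sign-flip and permutation tests, two-sided. Named were the 5 end windows of smallest p in each direction for age among those that passed, the 2 for diet, and the 3 highest and lowest ends with at least 20 windows. The members, lists and tests were chosen with earlier results of these data known. Alternatives were 20 reads, the most covered sites (1 in 1000) left out, 5 sites, ends of 1 and 5 Mb, limma on log2 ratios of counts plus 1, Fisher's exact test, a replicate block, a difference of at least 10 points, weighting by level or by sites per window, and leaving out each library. Control P7 and control P90 share the numbers 3 and 4 in their titles. No genome of this build was used, so no sequence is shown and windows were not assigned to promoters, gene bodies or intergenic sequence. There were no molecular identifiers, so reads need not be independent molecules. R 4.3.3, Python 3.11.15, numpy 2.4.6, scipy 1.17.1 and pandas 2.3.3 were used.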

Additional observations from a re-analysis of the deposited data

Results flagged for a closer look

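In 58 groups of 4 P7 libraries looked at, 4 had 1 library apart from the other 3, where chance alone sets about 1 in 20 apart. All 4 were high-fat P7 replicate 3, the library with the lowest mean in every zone. The last-end contrast enters without and with weighting, and the groups share libraries, so the 4 are not separate events. Its last ends minus the rest were -3.39 points, against -3.22 to -3.20 in the other 3 high-fat libraries, and -3.33 against -3.17 to -3.14 after weighting to the sites per window. In the window chr5:171764001-171765000 it held 41.9%, against 51.0% to 52.8%. In the window chr3:160001-161000 it held 25.0%, against 46.6% to 48.6%, and without it the diet difference of that window had an adjusted p of 0.0367 (limma moderated), against 0.670 with it.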

How the results depend on the processing

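The last minus first difference kept its sign with an exact p of 0.00195 under all filters and widths tried, at -1.37 to -6.06 points, and at -4.66 to -4.82 without single libraries. Both ends together against the rest were 0.105 points with ends of 1 Mb (0.417 when standardised for sites per window), 1.62 for first ends only and -0.0197 as a median over windows. It was -1.16 to -1.22 without single libraries (-1.02 to -1.07 standardised). The log2 density of listed sites was 0.16 with ends of 5 Mb and -0.11 to -0.12 without single libraries. The age change of ends minus rest was -0.287 with ends of 1 Mb and -0.139 for first ends only, and 0.301 to 0.412 without single libraries. The diet difference was -0.148 with ends of 1 Mb and -0.0407 with ends of 5 Mb, and 0.0536 to 0.093 without single libraries.

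End windows called higher and lower with age were 157 and 58 by limma, 575 and 344 by Fisher's exact test on pooled counts, 39 and 26 with ends of 1 Mb, and 587 and 356 with ends of 5 Mb. Those lower were 83 with 20 reads and 95 with 5 sites per window, where fewer windows were tested. Without single libraries they were 169 to 291 higher and 86 to 139 lower. The share called higher, ends minus rest, was 0.909 points, 1.99 with 20 reads, 2.35 with 5 sites, 0.109 by limma, 0.266 with other windows weighted to level, 0.405 with ends of 5 Mb, 0.488 with the replicate block and -2.08 with ends of 1 Mb, and 0.453 to 0.805 without single libraries. The share called lower was -0.952 points, -0.445 by limma, -0.261 with ends of 5 Mb, and -1.37 to -0.61 without single libraries. For diet, Fisher's test called 39 higher and 62 lower end windows, with no share for the rest given here. With the logistic model, leaving out single libraries gave 0 higher and 0 to 1 lower. Causes of these shifts were not tested. The 10 windows named for age passed under every alternative that held them.

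With a replicate block on the title numbers, 198 end windows were higher and 90 lower. In that model only the libraries numbered 3 and 4 inform the age difference. Deviations of same-numbered libraries correlated at -0.0229 and -0.00175, over 2 pairs. With 2 control P90 libraries their deviations are exact opposites, so this check cannot decide whether the numbers pair the libraries. The main model took them as unpaired.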
